A study of Mus musculus with 10 samples.

Results

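Regulatory T cells taken from allergic lung were compared with splenic regulatory T cells stimulated in culture, in 5 of the 10 RNA-seq libraries of a mouse study. The 3 lung libraries (control lung 1 to 3) held Tregs of the Foxp3YFP-Cre genotype, which the labels also call wild-type, from the lungs of mice immunized with OVA (ovalbumin). Their Cre recombinase is driven by the Foxp3 gene, and no floxed allele is named for them. The 2 spleen libraries (TCR spleen 1 and 2) held nTregs, natural Tregs of wild-type mice, cultured for 24 h with anti-CD3 and anti-CD28 and without TSLP, the epithelial cytokine that the study is about. All mice were C57BL/6J. The libraries were chosen by their titles. The remaining libraries held spleen nTregs given the same antibodies plus TSLP (2) and lung Tregs of OVA-immunized Crlf2fl/fl Foxp3YFP-Cre mice (3), a conditional knock-out of a TSLP receptor chain. Tissue, culture and stimulation differ together between the lung and spleen groups, and the library kit, which is stated only for spleen nTregs, may differ too, so their parts in any difference cannot be told apart. In bulk RNA, fewer cells of a type and less RNA per cell cannot be told apart either.

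Tregs are CD4 T cells that restrain immune responses under the control of Foxp3. In tissues such as lung they acquire receptors for alarm cytokines, homing receptors and repair factors, of which ST2 (Il1rl1) and amphiregulin (Areg) are the best known. Antibodies to CD3 and CD28 mimic antigen and costimulation: within a day a T cell enlarges, takes up iron and amino acids, makes ribosomes, turns to glycolysis and enters the cell cycle. Cells removed from tissue can also switch on immediate early genes such as Fos and Jun while they are being prepared.

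The reads assigned to genes numbered 27866035 and 27237312 in the TCR spleen libraries and 7970215, 1439675 and 12179227 in control lung 1 to 3, so control lung 2 was the least precise. Genes took 37.8% and 42.7% of the authors' library totals in spleen but 17.9%, 14.9% and 22.2% in lung. Levels are given as CPM (counts per 1e6 tested gene reads after TMM scaling), and each log2 fold change is lung over spleen. Scaled instead to the totals behind the authors' RPKM values, the median gene moved from 0.0020 to -0.92, and the split of called genes from 2834 higher and 2801 lower to 1401 and 5514; where this ends the call of a named gene, or moves a count of a gene group by over 1.5 times, it is said beside the result. T cell genes were present in all 5 libraries: 10 reference genes such as the CD3 chains summed to 5937, 5836 and 3970 CPM in lung and 4617 and 4714 CPM in spleen. EdgeR called 0 of them different. At an unadjusted edgeR p under 0.05 there were 5, with log2 fold changes of at most 0.93 in size, under a 2-fold difference.

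Genes of other lung cells accompanied the lung Tregs. The 10 markers of airway secretory cells summed to 73288, 15025 and 23235 CPM in lung against 0.0789 and 0.200 CPM in spleen, where 7 of the 10 had no read, Scgb1a1 among them. The 12 macrophage and monocyte markers summed to 355, 672 and 7321 CPM against 5.76 and 4.52, with Emr1, Mrc1 and Marco at 0 in spleen. Control lung 3 stood apart: its 8 red cell genes summed to 101249 CPM against 1106 and 4037 in the other lung libraries, its 8 NK cell markers to 272 CPM against 4.88 and 16.2, and its 10 B cell markers to 357 CPM against 21.9 and 19.8. In spleen the red cell genes summed to 2.17 and 1.28 CPM and the NK cell markers to 10.4 and 10.1 CPM. The B cell markers summed to 161 and 147 CPM in spleen, above control lung 1 and 2. The part these cells had in the differences below was not tested, and the larger changes in counts without control lung 3 are given beside the gene groups.

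**Figure D1:**
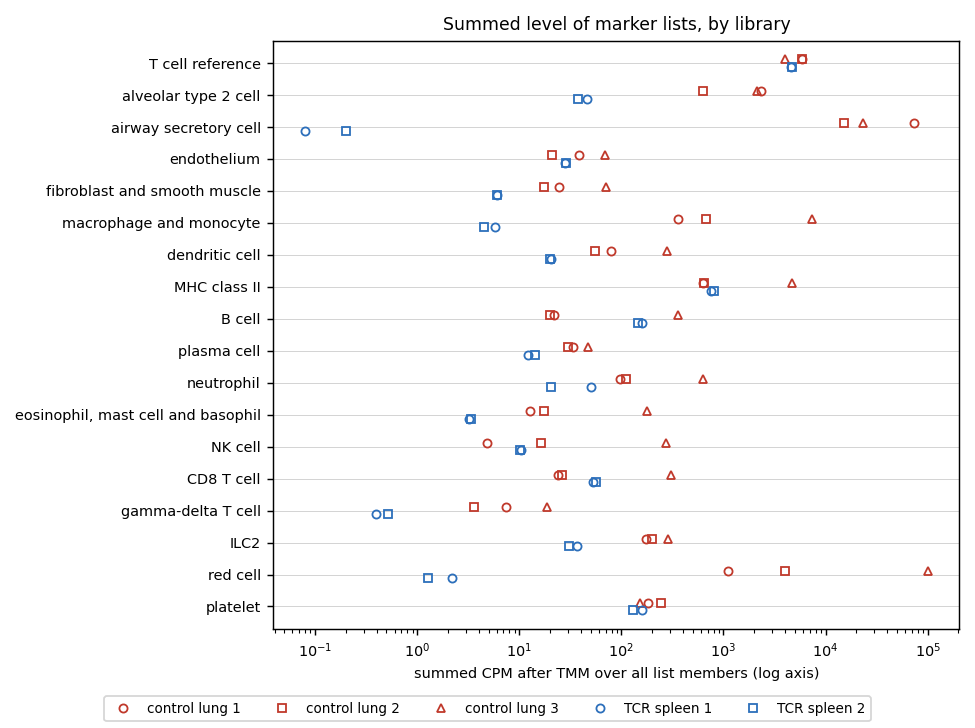
Summed CPM after TMM (log axis) of each marker list in the 3 control lung libraries (red) and the 2 TCR spleen libraries (blue), 1 symbol per library. The T cell reference lies at a like level in all 5, while airway secretory markers reach 73288 CPM in lung and stay at or below 0.200 CPM in spleen, and control lung 3 lies far to the right for red cell genes.

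Of 13325 genes tested, 2834 (21.3%) were called higher and 2801 (21%) lower in lung, a call being an edgeR adjusted p under 0.05 with at least a 2-fold difference. These shares (42.3% in either direction) are the background for every gene group below. With no fold minimum they were 25.5% and 26.3%, and the groups did not overlap for 33.3% of genes with lung higher and 37.9% with lung lower. Without TCR spleen 1 the calls were 1528 higher and 1875 lower, and without TCR spleen 2 they were 1553 and 1750. Lists that ran almost wholly lower in lung held the genes of mitosis (median log2 fold change -2.36), DNA replication (-2.14), cytosolic ribosomal proteins (-1.94), chaperones (-1.74) and nucleolar ribosome biogenesis (-1.69). Lists that ran higher held the Th17 genes (3.20), immediate early and tissue dissociation genes (2.98), chemokine receptors (2.91), tissue and effector Treg genes (2.46) and interferon response genes (2.36). The median over all tested genes was 0.0020. In the 9 lists without a call of higher, 5 of 270 members were higher at an unadjusted p under 0.05 and DESeq2 called 1; in the 8 lists without a call of lower, 5 of 156 were lower at that p and DESeq2 called 1.

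**Figure D2:**
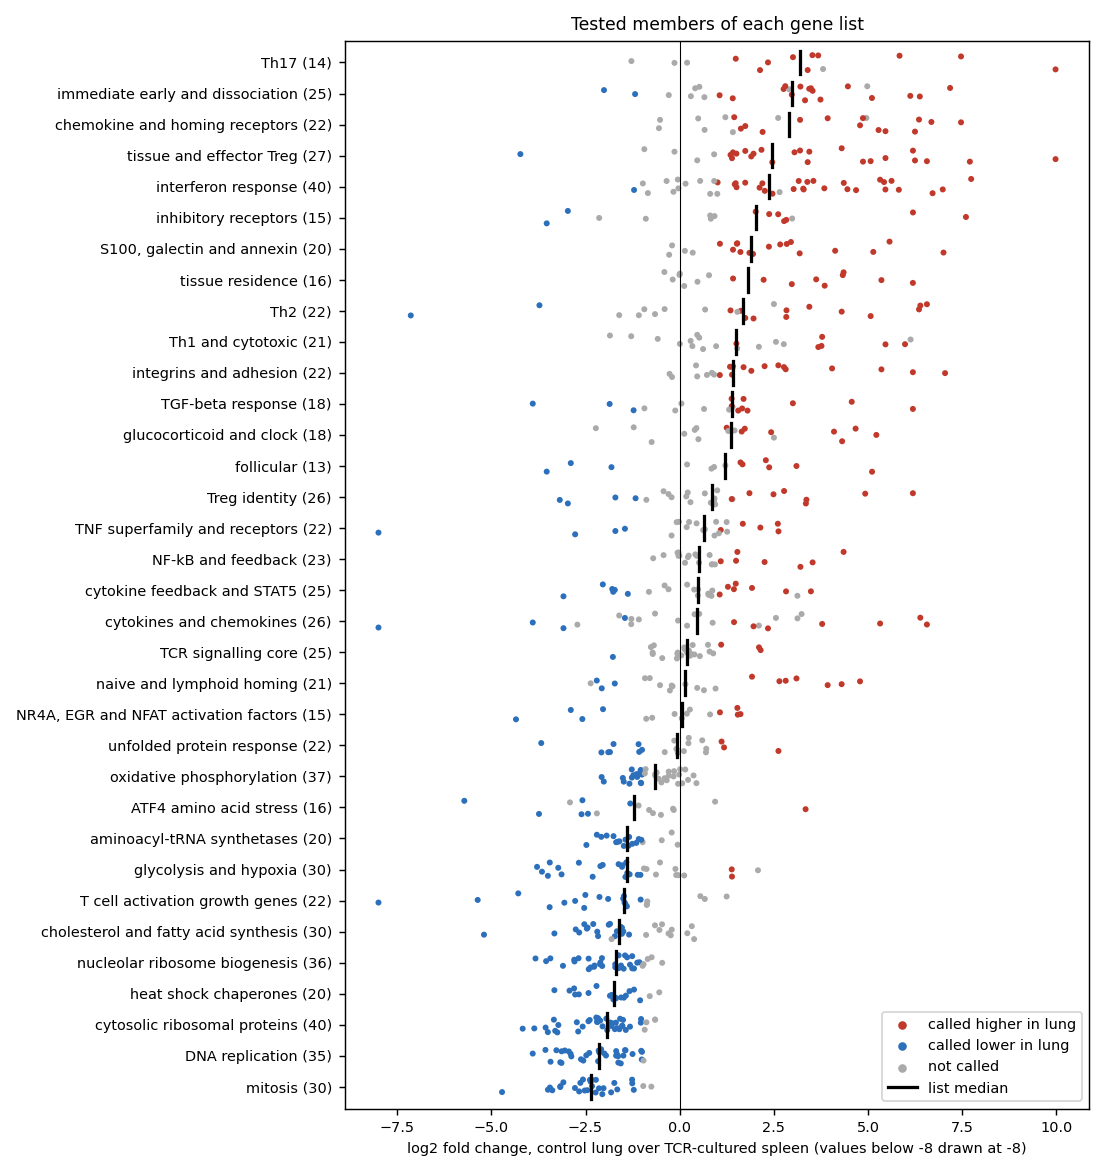
Log2 fold change (control lung over TCR-cultured spleen) of every tested member of 34 gene lists, with the number tested in brackets, coloured by call, and the list median as a black bar. The mitosis, DNA replication and ribosomal lists lie left of 0. The chemokine receptor, tissue Treg, and immediate early and dissociation lists lie mostly right of it. Members below -8 are drawn at -8.

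Cell cycle genes were lower in lung almost without exception. Of 35 DNA replication genes tested, 34 were called lower in lung and 0 higher (background 21% lower), and the remaining gene, Pola1, had a log2 fold change of -0.96. Of 30 mitosis genes, 28 were lower and 0 higher, and the rest, Ccnb2 and Anln, had log2 fold changes of -0.97 and -0.75. Mki67, whose product coats mitotic chromosomes and marks cycling cells, stood at 78.2, 112 and 68.0 CPM in lung and 811 and 718 CPM in spleen. Every lung library lay far below both spleen libraries (log2 fold change -3.17, SE 0.22, adjusted p = 4.36e-05). Ttk, the kinase of the spindle checkpoint, was at 0.595, 1.8 and 1.52 CPM against 29.9 and 33.5 CPM (-4.72, SE 0.49, adjusted p = 0.000247). Bub1, of the same checkpoint, was at 7.02, 4.20 and 3.70 CPM against 50.4 and 64.5 CPM, and Cenpe, the kinetochore motor, at 11.1, 10.2 and 11.9 CPM against 128 and 116 CPM. The groups did not overlap for any of these. Among replication genes, Gins1, of the replicative helicase, stood at 2.02, 5.99 and 3.20 CPM in lung and at 46.4 and 52.3 CPM in spleen (-3.90). Rfc4, of the clamp loader, was at 8.80, 6.59 and 9.51 CPM against 101 and 103 CPM (-3.57), and Prim1, the primase, at 8.92, 13.8 and 8.92 CPM against 90.6 and 104 CPM (-3.28). Without control lung 3, 30 replication and 26 mitosis genes were still called lower and 0 higher.

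Promoters of 4 cell cycle genes that were lower in lung are shown as examples. Each holds CCAAT, only Ttk holds TTTGAA, and none holds TTTCCCGC or TTTGGCGC, which are also counted below. The promoter of Rfc4 holds none of these motifs and is not shown. The sequences are RefSeq promoters (GRCm38.p6) from 250 bases before to 50 after the start, 5′ to 3′ on the gene's strand. Capitals mark CCAAT, and TTTGAA in the mitosis genes, on either strand, with ATTGG and TTCAAA being their reverse complements. Prim1 lies on chromosome 10 (chr10:128014965-128015264, plus strand), Ttk on chromosome 9 (chr9:83834439-83834738, plus strand), Bub1 on chromosome 2 (chr2:127831810-127832109, minus strand) and Cenpe on chromosome 3 (chr3:135212313-135212612, plus strand).
Prim1: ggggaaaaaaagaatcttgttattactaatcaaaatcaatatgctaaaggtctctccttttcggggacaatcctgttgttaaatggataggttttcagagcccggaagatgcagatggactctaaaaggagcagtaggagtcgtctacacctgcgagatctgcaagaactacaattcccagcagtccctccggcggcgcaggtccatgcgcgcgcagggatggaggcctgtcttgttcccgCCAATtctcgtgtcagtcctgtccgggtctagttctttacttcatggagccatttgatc
Ttk: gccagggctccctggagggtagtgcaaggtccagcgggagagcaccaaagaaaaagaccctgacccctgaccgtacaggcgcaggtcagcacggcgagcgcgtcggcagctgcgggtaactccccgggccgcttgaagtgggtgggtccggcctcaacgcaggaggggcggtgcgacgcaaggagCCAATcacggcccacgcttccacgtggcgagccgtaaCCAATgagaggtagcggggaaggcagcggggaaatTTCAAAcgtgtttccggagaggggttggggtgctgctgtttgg
Bub1: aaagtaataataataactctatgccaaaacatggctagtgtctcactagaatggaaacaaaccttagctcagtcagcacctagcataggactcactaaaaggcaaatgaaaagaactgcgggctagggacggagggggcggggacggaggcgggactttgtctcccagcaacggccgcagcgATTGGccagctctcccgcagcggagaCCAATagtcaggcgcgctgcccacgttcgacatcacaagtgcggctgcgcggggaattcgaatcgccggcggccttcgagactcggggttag
Cenpe: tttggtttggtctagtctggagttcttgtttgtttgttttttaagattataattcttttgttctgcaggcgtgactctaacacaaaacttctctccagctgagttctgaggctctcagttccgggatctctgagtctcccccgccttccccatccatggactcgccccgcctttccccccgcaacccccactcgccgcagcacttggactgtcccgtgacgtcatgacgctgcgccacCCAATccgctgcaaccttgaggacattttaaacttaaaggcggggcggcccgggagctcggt
CCAAT, the box bound by NF-Y, was in 22 of the 25 mitosis genes with a promoter in the table (88%) and in 37.9% of all 27025 promoters. TTTGAA, the core of the cell cycle homology region, was in 20 of the 25 (80%) and in 18.1% of all. Of 28 replication genes with a promoter, 6 (21.4%) held TTTCCCGC and 6 (21.4%) held TTTGGCGC, forms of the E2F site, which were in 1.11% and 0.537% of all promoters; CCAAT was in 15 (53.6%). These are matches of letters in a fixed window, and the genes of a list were chosen by function.

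Growth genes of T cell activation were mostly lower in lung as well: of 22 tested, 16 were called lower and 0 higher. Cd40lg and the transporter genes Slc1a5 and Slc3a2 were higher in lung at an unadjusted edgeR p under 0.05 but were not called. DESeq2 called 1 member of the list higher. Tfrc, the transferrin receptor that takes up iron, stood at 11.2, 17.4 and 12.6 CPM in lung and at 512 and 569 CPM in spleen (log2 fold change -5.37, SE 0.21, adjusted p = 7.47e-06). Srm, which makes spermidine, was at 7.38, 10.8 and 18.1 CPM against 237 and 248 CPM (-4.29), and Slc7a5, an amino acid transporter, at 11.8, 16.8 and 14.3 CPM against 144 and 161 CPM (-3.45). All 3 lung libraries were low for each. Il2, the growth factor that activated T cells secrete, had 0 reads in the lung group and stood at 10.7 and 14.8 CPM in spleen, which puts it at least 93.2-fold lower in lung against a floor of 3 reads over the group. Il2ra, the high-affinity IL-2 receptor chain that TCR signals and IL-2 raise, was at 116, 169 and 66.7 CPM in lung and at 1033 and 1066 CPM in spleen (-3.18, SE 0.36, adjusted p = 0.000626). Myc, a transcription factor gene of cell growth, differed less: 114, 73.7 and 113 CPM against 161 and 210 CPM, groups that did not overlap but lay under 2-fold apart (-0.87, adjusted p = 0.0154); Myc was called lower without TCR spleen 1.

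The lists of ribosome production ran mostly lower in lung at each stage. Of 36 nucleolar genes, which process ribosomal RNA and assemble ribosomes, 31 were called lower and 0 higher. Npm1, the nucleolar chaperone nucleophosmin, was at 99.9, 129 and 104 CPM in lung and at 1305 and 1836 CPM in spleen (log2 fold change -3.83, SE 0.20, adjusted p = 1.62e-05). Ncl, nucleolin, stood at 210, 264 and 205 CPM against 2810 and 2473 CPM, and Nop58, which guides methylation of ribosomal RNA, at 31.2, 31.2 and 37.0 CPM against 286 and 285 CPM. Of 40 cytosolic ribosomal protein genes, 36 were lower and 0 higher, with Rpl5 at 257, 276 and 360 CPM against 5680 and 5044 CPM (-4.17). A wider set of 99 tested genes was picked by ribosomal protein symbols alone, so it can hold other genes with like names and can miss members. The summed share of this set among reads assigned to genes was 5.92%, 6.37% and 5.58% for control lung 1 to 3. For the TCR spleen libraries it was 22.2% and 20.9%, a gap larger than the spread within either group. Reads of these genes can be shared with near-identical pseudogenes, and the sources used here do not say how the authors counted such reads. Of 20 aminoacyl-tRNA synthetases, which charge transfer RNAs, 16 were lower and 0 higher, led by Rars at 20.1, 37.8 and 35.4 CPM against 165 and 176 CPM (-2.48).

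Metabolic genes followed in part. Of 30 glycolysis and hypoxia genes, 19 were lower and 2 higher in lung (11 and 2 without TCR spleen 2, 25 and 0 with the totals behind the RPKM values). Pgk1, which makes ATP in glycolysis, was at 128, 118 and 119 CPM in lung and at 1570 and 1791 CPM in spleen (log2 fold change -3.79, SE 0.13, adjusted p = 6.59e-06), and Gapdh, often taken as a constant reference, was at 420, 453 and 396 CPM against 4420 and 4823 CPM (-3.45). The 2 genes higher in lung were Hif1a, the oxygen-regulated transcription factor, at 485, 463 and 305 CPM against 152 and 168 CPM (1.38), and Ndrg1 (1.39), and both calls were lost with the totals behind the RPKM values, that of Ndrg1 also without TCR spleen 1. Of 30 sterol and fatty acid synthesis genes 19 were lower and 0 higher. Scd2, a fatty acid desaturase, stood at 36.2, 21.6 and 44.2 CPM against 1303 and 1273 CPM (-5.20), and Hmgcs1, of the mevalonate pathway, at 39.9, 41.4 and 30.9 CPM against 242 and 260 CPM (-2.76). The pathway's regulators Srebf2 (0.32) and Srebf1 (-0.24) were not called. Oxidative phosphorylation had 16 of 37 genes lower and 0 higher, with a median of -0.65. The count depended on the scaling: 10 were lower by DESeq2, 8 with library totals of gene reads alone, 7 at an RPKM of at least 1, 9 with the length trend removed and 29 with the totals behind the RPKM values. At 7 to 10 genes the share lower is near the background of 21%.

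Protein folding genes were lower in the cytosolic and mitochondrial list and mixed in that of the endoplasmic reticulum. Of 20 cytosolic and mitochondrial chaperones 18 were lower in lung and 0 higher, with Hspd1, the mitochondrial chaperonin, at 111, 117 and 109 CPM against 733 and 838 CPM (log2 fold change -2.80) and Hsp90aa1 at 195.7, 222 and 182 CPM against 1597 and 1439 CPM (-2.93). Of 22 genes of the unfolded protein response of the endoplasmic reticulum, 8 were lower and 3 higher, with a median of -0.08 that changed sign under several settings. Of these genes 8 were lower and 0 higher without TCR spleen 1, 5 and 3 without TCR spleen 2, and 12 and 0 with the totals behind the RPKM values. Its chaperones Calr (77.2, 70.7 and 88.0 CPM against 1035 and 987 CPM), Hyou1 (-2.08) and Hsp90b1 (-1.90) were lower, while Dnajb9 was higher at 13.1, 8.99 and 28.5 CPM against 1.85 and 3.72 CPM (2.62), a call lost without TCR spleen 1 and with the totals behind the RPKM values. The ATF4 list of amino acid stress had 6 of 16 genes lower, among them Asns, asparagine synthetase (-2.61), and 1 higher, Nupr1 (3.34). In this list 9 were lower without control lung 3, 10 with the totals behind the RPKM values and 4 when either spleen library was left out.

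**Figure D3:**
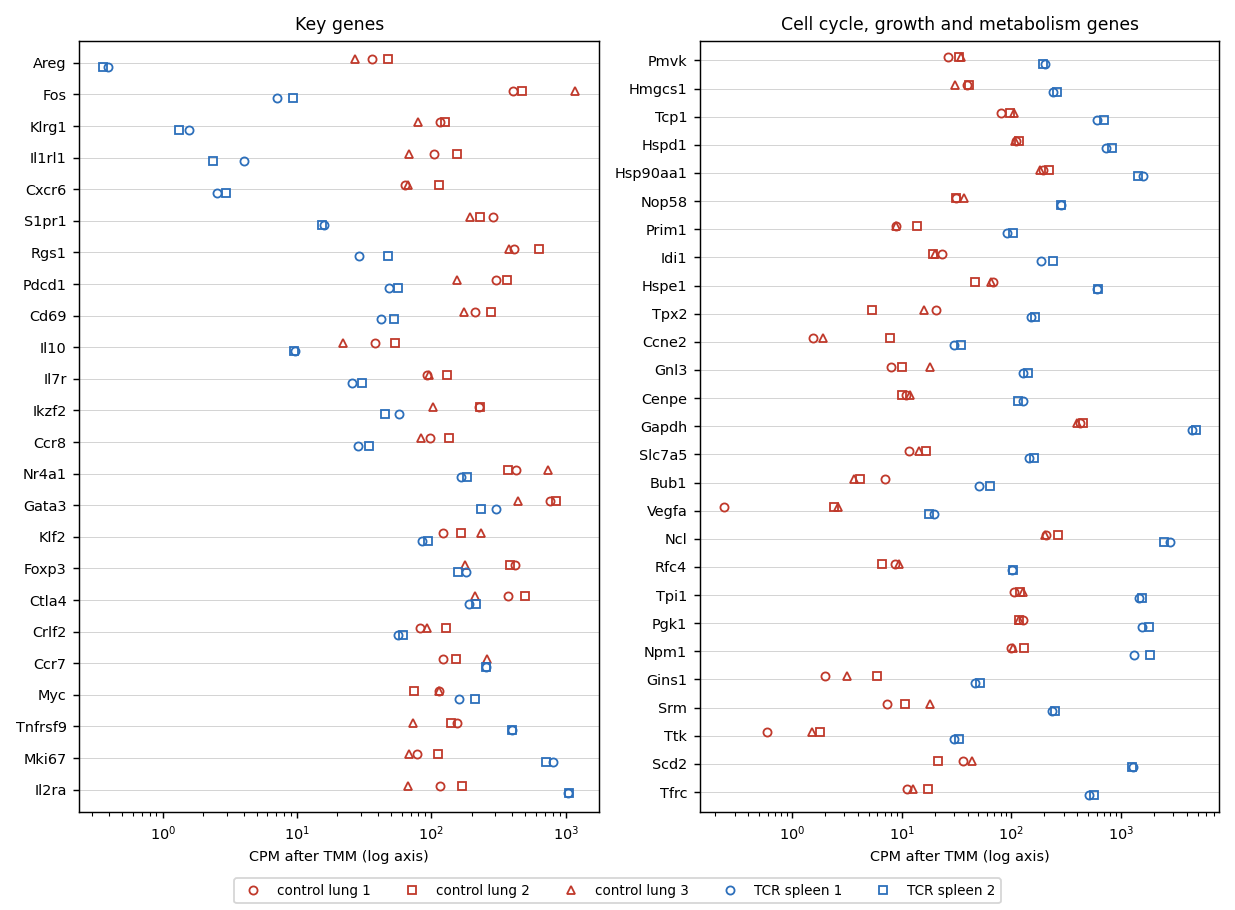
CPM after TMM (log axis) of 24 key genes (left) and of named cell cycle, growth and metabolism genes (right), sorted by log2 fold change, in the 3 control lung libraries (red) and the 2 TCR spleen libraries (blue), 1 symbol per library. Every gene on the right lies lower in all 3 lung libraries, with Tfrc at 11.2 to 17.4 CPM against 512 and 569 CPM, while the top genes on the left, Areg to Cd69, lie higher in lung.

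The Treg identity genes were less uniform. Foxp3 itself stood at 422, 382 and 178 CPM in lung and at 182 and 157 CPM in spleen, so control lung 3 lay within the spleen range and the difference was not called (log2 fold change 0.94, adjusted p = 0.0616). Per length, on the authors' RPKM scale, its mean level was 16.03 ± 5.47 (SD, n = 3) in lung and 16.2 ± 0.222 (SD, n = 2) in spleen, and with the totals behind that scale the log2 fold change was -0.018. Ctla4, the checkpoint receptor of Tregs, was likewise uncalled at 373, 495 and 213 CPM against 190 and 214 CPM (0.83, and -0.15 with those totals). Without control lung 3 both were called higher. Of 26 identity genes, 8 were higher and 4 lower (6 and 8 with the totals behind the RPKM values, 12 and 3 without control lung 3). The highest rises were Itgae, the integrin CD103 that binds epithelial E-cadherin, at 336, 406 and 197.1 CPM against 4.46 and 4.04 CPM (6.19, SE 0.39, adjusted p = 3.19e-05), and Nt5e, the adenosine-producing enzyme CD73, at 512, 520 and 254 CPM against 12.04 and 16.1 CPM (4.93). Nrp1 (3.37) and Ikzf4 (3.35), both linked to thymus-derived Tregs, and Ikzf2, encoding Helios (1.85), were higher too, the last of these not with the totals behind the RPKM values or without TCR spleen 2. The 4 that were lower were Il2ra, Lag3, an inhibitory receptor that activation raises, at 57.6, 74.9 and 59.7 CPM against 525 and 470 CPM (-2.97), Tnfrsf9, encoding 4-1BB, at 154, 140 and 73.4 CPM against 399 and 397 CPM (-1.71), and Folr4 (-1.17, a call lost without control lung 3).

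Genes of tissue and effector Tregs were higher in lung, 22 of 27 with 1 lower (background 21.3% and 21%; 14 and 3 with the totals behind the RPKM values; 23 and 2 without control lung 3). Il1rl1, the receptor ST2 for the alarm cytokine IL-33, was at 105, 154 and 68.0 CPM in lung and at 4.02 and 2.36 CPM in spleen (log2 fold change 5.07, SE 0.46, adjusted p = 0.000129). Areg, the epithelial repair factor amphiregulin, was at 36.4, 47.4 and 27.1 CPM against 0.395 and 0.360 CPM (6.57), and Rora, a nuclear receptor of tissue Tregs and ILC2, at 185, 170 and 95.3 CPM against 0.197 and 0.0800 CPM (9.98). Klrg1, a receptor of terminally differentiated cells, stood at 116, 127 and 79.96 CPM against 1.58 and 1.32 CPM (6.20), and Fgl2, a secreted suppressor protein, at 322, 329 and 229 CPM against 1.14 and 1.64 CPM (7.71). Il10, the suppressive cytokine, was at 38.2, 54.0 and 22.1 CPM against 9.63 and 9.57 CPM (1.96), a call lost with the totals behind the RPKM values and without TCR spleen 1. The single member that was lower was Irf4, a transcription factor that antigen receptor signals raise and that effector Tregs need, at 27.7, 27.6 and 28.8 CPM against 535 and 520 CPM (-4.23, SE 0.14, adjusted p = 6.59e-06). The 7 markers of ILC2, which share several of these genes, summed to 172, 200 and 285 CPM in lung and to 36.7 and 31.0 CPM in spleen. Klrg1 is 1 of the 7 and made up most of the sum in control lung 1 and 2, so the sums are no separate gauge of ILC2.

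Of 22 chemokine and homing receptors 14 were higher in lung and 0 lower (15 and 0 without control lung 3, 11 and 2 with the totals behind the RPKM values). Ccr6, the receptor for the mucosal chemokine CCL20, was at 129, 135 and 60.8 CPM against 0.552 and 0.640 CPM (log2 fold change 7.47). Ccr2, which monocytes also carry, was at 105, 152 and 137 CPM against 1.30 and 2.12 CPM (6.25). Cxcr3, of type 1 inflammation, was at 336, 239 and 160 CPM against 4.58 and 6.48 CPM (5.47), and Cxcr6, of tissue-resident T cells, at 63.7, 114 and 66.7 CPM against 2.53 and 2.96 CPM (4.87). Ccr8, a mark of tissue Tregs, was at 98.2, 136 and 84.5 CPM against 28.5 and 34.5 CPM (1.74), and lost its call with the totals behind the RPKM values. Of 16 tissue residence genes 9 were higher and 0 lower, among them Cd69, which holds cells in tissue, at 212, 280 and 175 CPM against 42.0 and 52.4 CPM (2.23), and Rgs1, which damps chemokine receptor signals, at 415, 635 and 376 CPM against 28.9 and 47.9 CPM (3.63).

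Cd69 rose together with the receptor it opposes. S1pr1, which leads T cells out of tissue, was at 287, 232 and 194.8 CPM in lung and at 15.9 and 15.3 CPM in spleen (log2 fold change 3.93, SE 0.23, adjusted p = 2.58e-05). Its transcription factor Klf2 was at 123, 166 and 234 CPM against 85.8 and 94.6 CPM, under the 2-fold minimum (0.95, adjusted p = 0.0216) and called higher without control lung 1. The lymph node homing receptor Ccr7 was not called, at 122, 153 and 258 CPM against 256 and 255 CPM (-0.52, adjusted p = 0.173). Of 21 naive and lymphoid genes in all, 7 were higher and 3 lower (7 and 5 without control lung 3, 6 and 7 with the totals behind the RPKM values), with Klf3 (4.30), Il6ra (3.10) and Itgb7 (2.82) among the higher and the naive-state factors Satb1 (-2.20) and Bach2 (-2.07) among the lower. Of 22 integrins and adhesion genes 14 were higher and 0 lower (8 and 2 with the totals behind the RPKM values), including Itga4, which pairs with Itgb7, at 260, 265 and 209 CPM against 15.7 and 13.8 CPM (4.05). Of 20 S100, galectin and annexin genes 16 were higher and 0 lower (8 and 2 on that scale). S100a6 stood at 763, 790 and 678 CPM against 14.6 and 16.6 CPM (5.57), close together in the 3 lung libraries.

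Th17 and Th2 genes were mostly called higher in lung, and Th1 and cytotoxic genes mostly were not called. The lists share members with those above, so their counts are not separate: Rora is also in the tissue and effector Treg list, as is Areg of the Th2 list. Of 14 Th17 genes 10 were higher and 0 lower, of 22 Th2 genes 12 were higher and 2 lower, and of 21 Th1 and cytotoxic genes 6 were higher and 0 lower. The last count is near the background of 21.3% higher, and the other 15 genes were not called. Without control lung 3 these counts became 10 and 0, 11 and 6, and 5 and 4, and the Th1 and cytotoxic median fell from 1.51 to 0.32. With the totals behind the RPKM values they were 8 and 1, 7 and 4, and 3 and 1. When either spleen library was left out 9 Th2 genes were higher and 0 lower. Gata3, the Th2 factor that tissue Tregs also use, was at 769, 848 and 441 CPM against 302 and 235 CPM (log2 fold change 1.35, adjusted p = 0.00632), a call lost without TCR spleen 2 and with the totals behind the RPKM values. Il18r1, a receptor chain for IL-18, was at 64.1, 70.1 and 61.5 CPM against 5.56 and 4.56 CPM (3.68), and Il18rap, its partner, at 23.7, 13.2 and 31.6 CPM against 0.434 and 0.280 CPM (5.98). Il17rb, a receptor chain for IL-25, was at 9.52, 16.2 and 8.25 CPM against 1.07 and 0.961 CPM (3.44). The receptors for IL-33, IL-18 and IL-25 were thus all higher in lung, while Il7r, which pairs with Crlf2 to bind TSLP, was at 93.5, 132 and 96.7 CPM against 25.6 and 30.7 CPM (1.92, lost with the totals behind the RPKM values). Crlf2 stood at 82.6, 128 and 93.5 CPM against 56.9 and 61.6 CPM, above the spleen libraries in every lung library but under 2-fold (0.76, SE 0.22, adjusted p = 0.0239), and its direction turned with those totals (-0.18). Its mean RPKM was 14.2 in lung and 16.1 in spleen.

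Secreted factors moved both ways. Of 26 cytokines and chemokines, 7 were higher and 4 lower in lung, near the background of 21.3% and 21%. Without control lung 3 the counts were 7 and 10 and the median turned from 0.46 to -0.84. Without TCR spleen 1 the counts were 2 and 4, without TCR spleen 2 they were 4 and 4, and with the totals behind the RPKM values 3 and 4. Tgfb1, a main suppressive cytokine of Tregs, was lower at 22.1, 26.4 and 34.2 CPM against 425 and 405 CPM (log2 fold change -3.90, SE 0.21, adjusted p = 2.01e-05). The activation cytokines Tnf (19.2, 17.98 and 31.4 CPM against 62.9 and 64.8 CPM), Lta (-2.78) and Lif (-3.09) were lower too. Tnfsf4, OX40 ligand, had 0 reads in lung and was at 2.249 and 5.52 CPM in spleen, at least 28.4-fold lower against the same floor, a call lost without TCR spleen 2. Of 18 genes of the TGF-beta response, 9 were higher and 3 lower (3 and 5 with the totals behind the RPKM values, 8 and 1 when either spleen library was left out). Its receptor Tgfbr2 was at 277, 284 and 231 CPM against 32.1 and 33.5 CPM (3.01), opposite to the ligand. Among 15 inhibitory receptors 7 were higher and 2 lower (10 and 3 without control lung 3, where the median fell from 2.02 to 1.14). Pdcd1, encoding PD-1, was at 303, 369 and 155 CPM against 48.7 and 56.9 CPM (2.38, adjusted p = 0.00167), whereas Btla was lower at 13.2, 12.6 and 18.5 CPM against 169 and 181 CPM (-3.53), as was Lag3.

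Of 25 genes of an immediate early and tissue dissociation list, 16 were higher in lung and 2 lower (17 and 2 without control lung 3). Fos stood at 408, 470 and 1179 CPM against 7.10 and 9.41 CPM (log2 fold change 6.38, SE 0.69, adjusted p = 0.00123) and Jun at 465, 396 and 767 CPM against 14.6 and 17.0 CPM (5.11), both highest in control lung 3. Dusp1, a phosphatase that shuts off MAP kinases, was at 974, 1062 and 1697 CPM against 7.81 and 9.33 CPM (7.18, SE 0.35, adjusted p = 1.31e-05). Jund, of the same AP-1 family as Fos and Jun, ran the other way at 141, 285 and 214 CPM against 851 and 858 CPM (-2.01). The other lower member was the chaperone gene Hsph1 (-1.18). The RefSeq promoters of the 2 leading members follow, Dusp1 from chromosome 17 (chr17:26508423-26508722, minus strand) and Fos from chromosome 12 (chr12:85473640-85473939, plus strand), with the cAMP response element TGACGTCA in capitals where it occurs.
Dusp1: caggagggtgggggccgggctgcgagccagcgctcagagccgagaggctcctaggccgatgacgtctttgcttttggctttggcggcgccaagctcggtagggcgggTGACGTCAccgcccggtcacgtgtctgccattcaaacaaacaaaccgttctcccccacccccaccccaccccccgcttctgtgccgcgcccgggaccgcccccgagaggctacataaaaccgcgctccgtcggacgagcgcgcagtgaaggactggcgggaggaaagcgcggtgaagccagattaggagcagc
Fos: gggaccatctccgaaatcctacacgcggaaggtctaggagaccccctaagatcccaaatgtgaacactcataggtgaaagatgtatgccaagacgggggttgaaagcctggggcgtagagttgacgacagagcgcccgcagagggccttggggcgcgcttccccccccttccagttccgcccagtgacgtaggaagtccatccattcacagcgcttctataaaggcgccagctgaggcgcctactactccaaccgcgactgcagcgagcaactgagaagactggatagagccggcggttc
TGACGTCA was in 3 of the 23 list members with a promoter in the table (13.04%) and in 1.88% of all promoters, and the serum response element in 1 (4.35%) and 1.57%. Fos holds no exact match of either in this window.

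Factors that the T cell receptor itself induces did not move as a block: of 15 NR4A, EGR and NFAT genes 4 were higher and 4 lower (0 and 6 with the totals behind the RPKM values), with a median of 0.055 whose sign depended on the setting. Nr4a1, the Nur77 reporter gene of T cell receptor signalling, was higher at 430, 372 and 738 CPM against 168 and 186 CPM (log2 fold change 1.54, adjusted p = 0.00406; lost without TCR spleen 1 and with the totals behind the RPKM values). Egr2 was lower at 15.1, 13.8 and 30.6 CPM against 79.9 and 88.5 CPM (-2.04), as were its relative Egr3 at 0.714, 1.20 and 1.18 CPM against 23.4 and 17.6 CPM (-4.35) and their corepressor Nab2 (-2.59). Of 25 genes of the receptor's own signalling machinery 3 were higher and 1 lower (2 and 7 with the totals behind the RPKM values). Of 18 glucocorticoid and clock genes 8 were higher and 0 lower (5 and 3 with the totals behind the RPKM values), with Tsc22d3, the glucocorticoid-induced leucine zipper, at 344, 393 and 485 CPM against 18.03 and 22.9 CPM (4.31) and Txnip, an inhibitor of glucose uptake, at 340, 361 and 540 CPM against 15.1 and 17.4 CPM (4.67). Of 23 NF-kB genes 7 were higher and 0 lower (4 and 3 with the totals behind the RPKM values, 10 and 0 without control lung 3), and the feedback inhibitors led: Tnfaip3, encoding A20, was at 569, 619 and 532 CPM against 25.8 and 30.2 CPM (4.35), and Nfkbia, encoding the inhibitor IkB-alpha, at 1621, 1603 and 1499 CPM against 175 and 166 CPM (3.21). The subunit genes Rela (0.14), Relb (-0.031) and Nfkb2 (-0.028) were not called. Nor was Nfkb1, which lay lower in every lung library at 103, 121 and 144 CPM against 191 and 209 CPM but under 2-fold (-0.70, adjusted p = 0.0140).

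Of 40 interferon response genes 27 were higher in lung and 1 lower (22 and 6 with the totals behind the RPKM values, 30 and 0 without control lung 3). Ifit3, which blocks translation of viral RNA, was at 255, 243 and 148 CPM against 0.947 and 1.04 CPM (log2 fold change 7.74, SE 0.37, adjusted p = 1.31e-05), and Rsad2, encoding viperin, at 70.6, 83.3 and 80.9 CPM against 1.03 and 0.440 CPM (6.72). Oasl2 stood at 60.7, 50.4 and 61.4 CPM against 1.18 and 0.841 CPM (5.82). The groups were wide apart for these genes. Gbp2, a GTPase gene that interferon-gamma induces, was lower in lung at 270, 259 and 147 CPM against 477 and 563 CPM (-1.21), a call lost without control lung 3 and without TCR spleen 2, and Tap1 (0.16), Psmb8 (-0.035) and Psmb9 (-0.17) of antigen processing were not called.

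Among called genes whose groups did not overlap, with haemoglobin, histone, predicted and small RNA genes left out, the 10 largest rises were genes of lung epithelium and of allergic airways, each with 0 reads in spleen. Scgb1a1, the club cell secretoglobin, was at 68287, 13982 and 20358 CPM, at least 573888-fold higher against a floor of 3 reads over the spleen group. Retnla, made by macrophages and epithelium in type 2 inflammation, was at 2308, 1537 and 4202 CPM (at least 44995-fold), and Clca3, of goblet cells, at 282, 273 and 1147 CPM (at least 9513-fold). The remaining genes named by size were Cbr2, Cyp2f2, Sftpa1, Scgb3a2, Bpifa1, Reg3g and Bpifb1, all with reads in each lung library. The calls of Scgb1a1, Cbr2, Cyp2f2 and Scgb3a2 were lost without control lung 3 and when either spleen library was left out, and that of Clca3 when either spleen library was left out. The largest falls were Akr1c18, a progesterone-inactivating enzyme gene, at 0 reads in lung against 38.2 and 53.0 CPM (at least 334-fold lower), Fam71b, also at 0 in lung against 40.6 and 40.9 CPM (at least 298-fold lower). Others were Rmrp (a call lost without TCR spleen 1), Nrgn, Bc1, Crls1, Cdk2ap1, Ajuba, Pabpc4 and Nefh (lost when either spleen library was left out). Nrgn, a calmodulin-binding protein gene, was at 0.119, 0 and 1.18 CPM against 99.6 and 85.1 CPM (log2 fold change -7.16), and Pabpc4, a poly(A)-binding protein that activated T cells induce, at 4.16, 10.2 and 7.66 CPM against 350 and 268 CPM (-5.52).

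Replication-dependent histone genes ran against the cell cycle lists. Of 66 tested histone cluster genes 53 were higher in lung and 0 lower, with a median log2 fold change of 2.11, and they took 0.290%, 0.349% and 0.191% of gene reads in lung and 0.0331% and 0.0266% in spleen. Their transcripts mostly lack poly(A) tails. Hist1h4d was at 252, 325 and 144 CPM against 8.05 and 5.56 CPM (5.13) and Hist1h1c at 171, 159 and 243 CPM against 9.31 and 8.85 CPM (4.40). A list of RNAs without tails, 8 of them histones, had 10 of 13 genes higher and 2 lower, with a median of 2.58, and summed to 743, 776 and 599 CPM in lung against 104 and 70.7 CPM. Outside the histones, Vaultrc5 (3.19), Rnu11 (5.79) and Rnu12 (4.96) were higher, each under 6 CPM in every library, and Rmrp (0 reads in lung) and Rpph1 (-1.54) were lower. Of 6 long non-coding RNAs, some of them hosts of small nucleolar RNAs, 1 was higher and 3 lower, with a median of -1.93. Malat1 was higher at 2763, 3373 and 2854 CPM against 843 and 337 CPM (2.35), and Gas5, Snhg1 (-3.54) and Snhg12 (-4.19) were lower. Gas5, a host of small nucleolar RNAs whose transcript decays when it is translated, stood at 80.4, 82.1 and 75.8 CPM against 596 and 629 CPM (-2.95), and of 11 tested Snhg host genes 7 were lower and 1 higher. The kit stated for the spleen libraries depletes ribosomal RNA from total RNA and does not select tails. None is stated for lung, and the part of the kit in these values cannot be told apart from tissue and culture.

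The other 2 groups gave the same comparison in libraries not used above: Crlf2-deleted lung Tregs (3) against spleen nTregs given TCR and TSLP (2). Both comparisons share the differences of tissue and culture, and any difference of kit, and they differ in Crlf2 and TSLP. In that comparison 3679 of 13726 genes (26.8%) were called higher and 3500 (25.5%) lower. Of 13000 genes tested in both, 2675 were higher in control lung and 2196 of these were higher again, which is 82.1% of the first list and 65.7% of the second. Of 2786 lower genes 2201 were lower again (79.0% and 64.3%), and 4 genes were called in opposite directions. DNA replication had 34 of 35 genes lower, mitosis 29 of 30, nucleolar ribosome biogenesis 34 of 36 and the tissue and effector Treg list 19 of 27 higher. Ribosomal protein genes were lower in 20 of 40 there against 36 of 40 here, and interferon genes higher in 16 and lower in 6 of 40 there against 27 and 1 here; those differences were not tested. Lag3 was lower here (-2.97) and had a log2 fold change of 0.095 there, and Foxp3 was called higher there (1.43). Crlf2, the deleted gene, was called lower there (-2.98).

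**Figure D4:**
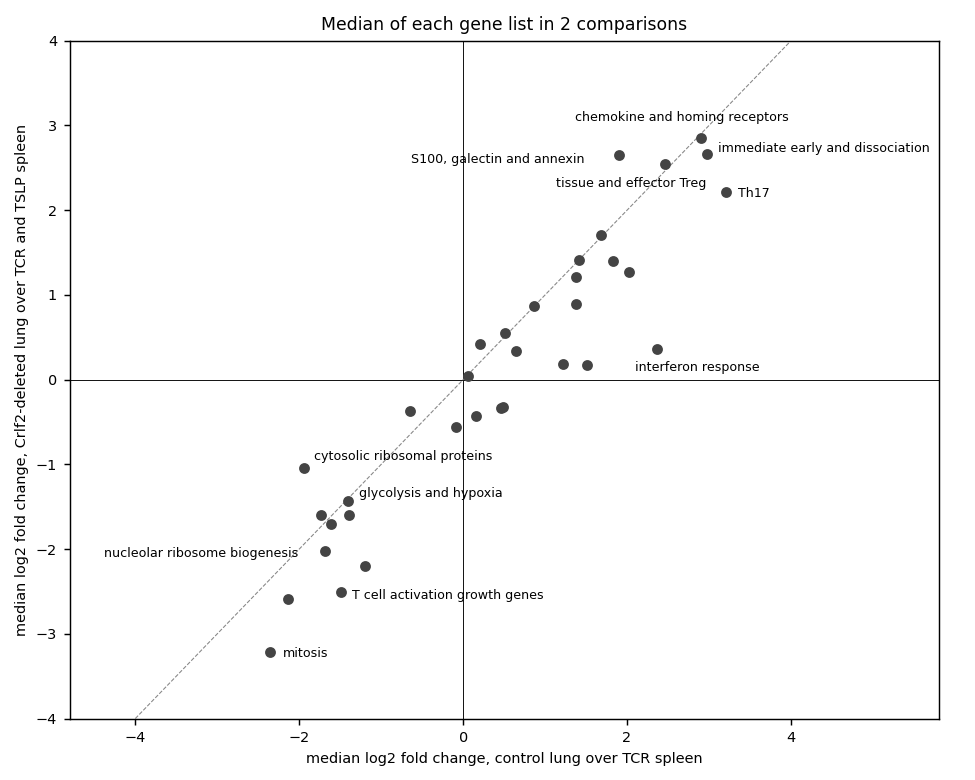
Median log2 fold change of each of 34 gene lists in control lung over TCR spleen (x axis) and in Crlf2-deleted lung over TCR and TSLP spleen (y axis), 1 point per list, with the line of equal values dashed. The mitosis list lies lowest, at -2.36 and -3.21, chemokine receptors lie at 2.91 and 2.86, and the interferon list lies below the line, at 2.36 and 0.36.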

How the data were processed

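Counts of 3 control lung and 2 TCR spleen libraries were analysed, with 5 further libraries for the second comparison. The deposited counts, per the file headers, are numbers of whole reads for each RefSeq transcript. RPKM, per the file headers, was computed by the authors with a library total above the listed reads. The submitters' processing notes list bedtools 2.25.0, Bowtie2 2.2.6, edgeR, SAMtools 0.1.8, TopHat2 2.2.1 and mm10. No source used here gives their roles, the counting tool or its strand rule, so overlapping and antisense genes are uncertain. Per the labels' protocols, stimulated nTregs had libraries from ribosome-depleted total RNA, made with a kit that keeps strand.

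Each of 23992 symbols was represented by its transcript with most mean reads (4343 had several). The test was edgeR 4.0.16 (R 4.3.3; quasi-likelihood, two-sided, TMM, filterByExpr with a minimum count of 10, robust), fitted on the groups compared. Every adjusted p is from it, by Benjamini-Hochberg over 13325 genes, unless DESeq2 is named. The SE is the log2 fold change divided by the root of F. In simulated counts (13325 genes) the test found 20 of 100 genes with a 2-fold change and 66 of 100 with a 4-fold change. Of its 89 calls 3 were false. All other genes were unchanged in the simulation, whereas 42.3% of genes were called in the data. These rates therefore do not carry over to the data. Whether replicates came from separate animals or cultures is not stated, so p-values cover only sample-to-sample spread that may be technical. All replicate pairs differed beyond sampling noise (chi-square per degree of freedom 15.4 to 161).

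Members and lists were chosen with earlier results of these data known, and 11 list genes had no row. Named genes were 24 key genes (1 further gene is not reported here), the 10 largest rises and 10 largest falls without overlap (higher group at RPKM 5 or more, no predicted, small RNA, receptor segment, haemoglobin or histone genes), and up to 4 called members per list by fold change plus members against the list. Members named as not called, and the histone, Snhg, Malat1, Gas5 and Rpph1 values, were chosen after their values were seen. Alternatives were a replicate block, DESeq2 1.42.0, other scalings, filters, folds and transcript sums, length and GC trends (loess span 0.3), and leaving out each library. Removing marker genes of other cells and scaling to the totals behind the RPKM values were added after the data were seen.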

Additional observations from a re-analysis of the deposited data

How the results depend on the processing

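Genes named by the rule and reported here kept their direction in all alternatives except with the library totals behind the deposited RPKM values, where Foxp3 (-0.018), Ctla4 (-0.15) and Crlf2 (-0.18) reversed; over all alternatives 102 calls of named genes were lost and 21 gained. In that scaling 1401 genes were higher and 5514 lower. With library totals of gene reads alone the median gene moved to 0.21. A 4-fold minimum left 1745 higher and 1269 lower. Leaving out each library gave 1528 to 3013 higher and 1750 to 3153 lower, with 1528 and 1875 without TCR spleen 1 and 1553 and 1750 without TCR spleen 2, fits that assume the lone spleen sample varies like the lung group. No alternative called any gene in the opposite direction to the main analysis.

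Replicate numbers did not pair the samples (correlations of deviations from -0.0503 to 0.0503, with 2 shared numbers), and the fit with the replicate number as a block called 2830 genes higher and 3145 lower, and 7209 in the second comparison against 7179. Among list medians, the NR4A, EGR and NFAT list reversed with the block (-0.45), no filter (-0.019), summed transcripts (-0.011), length and GC trends removed (-0.060), and the RPKM totals (-0.89), and ranged from -0.22 to 0.17 when each library was left out. The unfolded protein response list reversed with library totals alone (0.13) and RPKM of at least 1 (0.16), and ranged from -0.20 to 0.017 when each library was left out, the highest without TCR spleen 2. Cytokines and chemokines reversed with the block (-0.92) and with the RPKM totals (-0.43), and ranged from -0.84 (without control lung 3) to 0.82 when each library was left out. With the RPKM totals alone, the lists of Treg identity (-0.092), naive and lymphoid homing (-0.77), cytokine feedback and STAT5 (-0.45), TNF superfamily (-0.31), NF-kB (-0.42) and TCR signalling (-0.73) reversed too, beside a median gene of -0.92. The cause was not tested. Depth limits control lung 2 most, at 1439675 gene reads.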
